A study of Arabidopsis thaliana with 6 samples.

Results

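The Aux/IAA repressors and the auxin response factors (ARFs) were read in callus as 44 loci of a deposited table of 31305, taken by their locus codes: 29 Aux/IAA genes (IAA1 to IAA20 and IAA26 to IAA34) and 15 ARF genes (ARF1 to ARF11 and ARF16 to ARF19). All 44 codes were in the table, and 8 carry another symbol in the TAIR10.1 annotation (IAA3 is SHY2, IAA4 is ATAUX2-11, IAA17 is AXR3, IAA26 is PAP1, IAA27 is PAP2, ARF3 is ETT, ARF5 is MP and ARF7 is NPH4). The study sequenced messenger RNA of callus, the unorganised tissue that explants form on hormone-rich medium, from hypocotyls cut at 1 week of age in Arabidopsis thaliana and kept for 7 days on such a callus-inducing medium. The mutant was labelled rap2.12-2 (3 libraries), an allele of the ethylene response factor gene RAP2.12 whose nature is not given in the sources used here, and was set against its wild type Col-0 (3 libraries). The series calls the replicates biological. Levels are TPM, an abundance already divided by transcript length and scaled to a library total, which was not the same in all libraries here.

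Auxin acts on genes by removing repressors. Aux/IAA proteins bind ARFs on DNA and recruit TOPLESS co-repressors. When auxin joins them to the F-box receptors TIR1 and AFB, they are ubiquitinated by an SCF ligase and destroyed, which frees the ARFs. Many Aux/IAA genes are themselves induced by auxin, so the repressors form a feedback loop. Class A ARFs, such as ARF5, ARF7 and ARF19, activate transcription, and ARF7 and ARF19 are known for their role in lateral root founding and callus formation. Class B and class C ARFs are mostly described as repressors.

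The degron through which auxin destroys an Aux/IAA protein separates the family in sequence. Its core is the run glycine, tryptophan, proline, proline. Codons for this run, with any base at the wobble position of glycine and proline, were found in frame in the longest annotated coding sequence of 23 of 29 Aux/IAA genes (79.3%) and in 0 of 15 ARF genes, against 0.124% of 27444 nuclear protein-coding genes. The Aux/IAA genes with no match were IAA20, IAA30, IAA31, IAA32, IAA33 and IAA34. The next codon matched GTN in 17 of the 23 genes and ATN in 5. The coding strand around the core, in capitals, is shown for the 5 Aux/IAA members whose levels did not overlap between the genotypes, read from the RefSeq TAIR10.1 genome. IAA12 and IAA13 are among the 5 with an ATN codon after it.
IAA17 (chr1:1136619-1136973, plus strand, joined across an intron): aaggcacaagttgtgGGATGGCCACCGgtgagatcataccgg
IAA29 (chr4:15583936-15583977, plus strand): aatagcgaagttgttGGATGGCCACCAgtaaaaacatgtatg
IAA13 (chr2:14115227-14115538, minus strand, joined across an intron): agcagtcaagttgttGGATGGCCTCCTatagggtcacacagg
IAA5 (chr1:5366269-5366310, minus strand): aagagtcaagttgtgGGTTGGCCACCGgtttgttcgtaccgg
IAA12 (chr1:1240780-1241093, plus strand, joined across an intron): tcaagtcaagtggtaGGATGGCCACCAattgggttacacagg

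Several ARF transcripts carry a target site of a microRNA. The mature sequences of miR160a-5p and miR167a-5p are given with the seed, bases 2 to 8, in capitals, as that genome spells them (T for U).
miR160a-5p (chr2:16340282-16340302, plus strand): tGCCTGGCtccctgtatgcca
miR167a-5p (chr3:8108090-8108110, plus strand): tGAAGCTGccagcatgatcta
A site with at most 4 mismatches to the complement of miR160a-5p was found in ARF10, ARF16 and ARF17, which make up class C and were the only 3 of 27440 transcripts with one. For miR167a-5p such a site was found in ARF6 and ARF8 of class A, among 7 transcripts in all (0.0255%). Each site is shown 5′ to 3′ with the bases that match the complement in capitals.
ARF10 (chr2:12115741-12115761, plus strand): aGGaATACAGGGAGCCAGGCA
ARF16 (chr4:14704141-14704161, minus strand): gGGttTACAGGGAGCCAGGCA
ARF17 (chr1:29274189-29274209, plus strand): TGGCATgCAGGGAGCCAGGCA
ARF6 (chr1:10686478-10686498, minus strand): gAGATCAgGCTGGCAGCTTgt
ARF8 (chr5:14633841-14633861, plus strand): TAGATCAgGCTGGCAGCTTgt

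A pair of libraries stood apart, and the transcript of the gene named in the label was higher, not lower, under that label. RAP2.12 measured 359.6, 363 and 465 TPM in the rap2.12-2-labelled libraries, against 123, 140.0 and 161 TPM in Col-0. The difference was 1.48 on the log2(TPM + 1) scale (SE 0.17, limma adjusted p = 0.026), and the transcript was higher in all 3 libraries where the label names a mutant. The call was lost with a replicate block (limma adjusted p = 0.062), with no filter (0.0618), with no variance trend (0.0766), without both replicates numbered 1 (0.308) and without any 1 library other than rap2.12-2-labelled replicate 1 (0.0534 to 0.22), with values of 1.36 to 1.58 throughout. A direction here describes libraries with that label and not a loss of RAP2.12. Col-0 replicate 1 summed to only 845341 TPM, with 12005 TPM from organelle genes, whereas the other 5 ranged from 984523 to 992724 TPM. The median difference of a kept gene from the Col-0 mean, on the log2(TPM + 1) scale, was -0.17 in Col-0 replicate 1. It was 0.08 in Col-0 replicates 2 and 3, and -0.17, 0.09 and 0.04 in rap2.12-2-labelled replicates 1, 2 and 3. The values printed here were not rescaled for these differences. In the library labelled rap2.12-2 replicate 1, levels followed transcript length: across 18602 genes, Spearman's rho between a gene's difference from the Col-0 mean and its transcript length was -0.54, against -0.01 to 0.01 in the other 5 libraries, and these genes share 1 library and are not independent. All 6 root founder genes that mark callus were present. They summed to 250, 361 and 358 TPM in the rap2.12-2-labelled libraries and to 386, 412 and 434 TPM in Col-0. The gap was widest for WOX11, at 102 and 186 TPM (means of the rap2.12-2-labelled libraries, then of Col-0). PLT1 (107 and 109.7 TPM), WOX5 (26.2 and 28.1 TPM) and SCR (29.9 and 32.4 TPM) were also lower under the label. PLT2 (39.4 and 36.2 TPM) and LBD16 (18.4 and 17.6 TPM) were higher. Without the library labelled rap2.12-2 replicate 1, log2 fold changes were -0.68 for WOX11 and -0.11 for WOX5. They were then positive for PLT1 (0.10), SCR (0.11), PLT2 (0.27) and LBD16 (0.22). LHCB1.1, a marker of green tissue, was at 0.193 and 0.333 TPM. The xylem markers XCP1, XCP2, IRX3 and VND7 summed to 240.5, 252 and 242 TPM in the rap2.12-2-labelled libraries and to 149, 186 and 185 TPM in Col-0. By their means XCP1, XCP2 and IRX3 were higher under the label and VND7 was lower, at 5.62 and 6.01 TPM. Phloem markers summed to 20.7 to 35.0 TPM and 23.5 to 28.3 TPM, epidermis markers to 20.1 to 39.7 TPM and 33.1 to 56.6 TPM, green tissue markers to 1.72 to 2.31 TPM and 2.89 to 4.53 TPM, without overlap, and root hair markers to 1.90 to 6.54 TPM and 0.49 to 4.73 TPM, in the same order. All 3 phloem and 3 epidermis markers, 2 of 3 green tissue markers and 1 of 2 root hair markers reached a mean of 1 TPM. The part of these cell types in the values below was not tested, and in bulk tissue fewer cells of a type and less RNA per cell cannot be told apart.

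Callus held 24 Aux/IAA transcripts whose mean over all libraries reached 1 TPM, and their levels ran over 2 orders of magnitude. IAA9 (AT5G65670) was the most abundant at 697, 613 and 668 TPM in the rap2.12-2-labelled libraries, against 655, 725 and 733 TPM in Col-0. IAA2 (AT3G23030), which auxin induces, followed at 819, 556 and 577 TPM in the rap2.12-2-labelled libraries, against 521, 579 and 702 TPM in Col-0. IAA4 (AT5G43700), another auxin-induced gene, measured 469, 288 and 283 TPM in the rap2.12-2-labelled libraries, against 293, 247 and 368 TPM in Col-0. The genotypes overlapped in all 3 genes, and the first and second in this order, IAA9 and IAA2, also overlapped each other. Log2 fold changes were -0.10 for IAA9, 0.10 for IAA2 and 0.17 for IAA4, and the last 2 turned negative without the library labelled rap2.12-2 replicate 1, at -0.07 each. IAA9, IAA2, IAA4 and IAA17 together made up 56.6% of the summed Aux/IAA level in the rap2.12-2-labelled libraries and 54.3% in Col-0. IAA8, IAA1, IAA13, IAA16, IAA30 and IAA26 came next, at means of 104 to 276 TPM over the 6 libraries, and IAA10, IAA29, IAA18 and IAA14 were the least abundant of the kept members, at 5.43 to 13.4 TPM. Another 5 members stayed under a mean of 1 TPM and were not tested. IAA15 was listed at 0 in every library, IAA6 at 0 in all but Col-0 replicate 1 (0.66 TPM), and IAA34, IAA32 and IAA31 did not exceed 1.41 TPM in any library. The 6 genes that lack the degron codons summed to 260.5, 199 and 201 TPM in the rap2.12-2-labelled libraries and to 169.7, 209 and 214 TPM in Col-0, mostly IAA30.

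**Figure D1:**
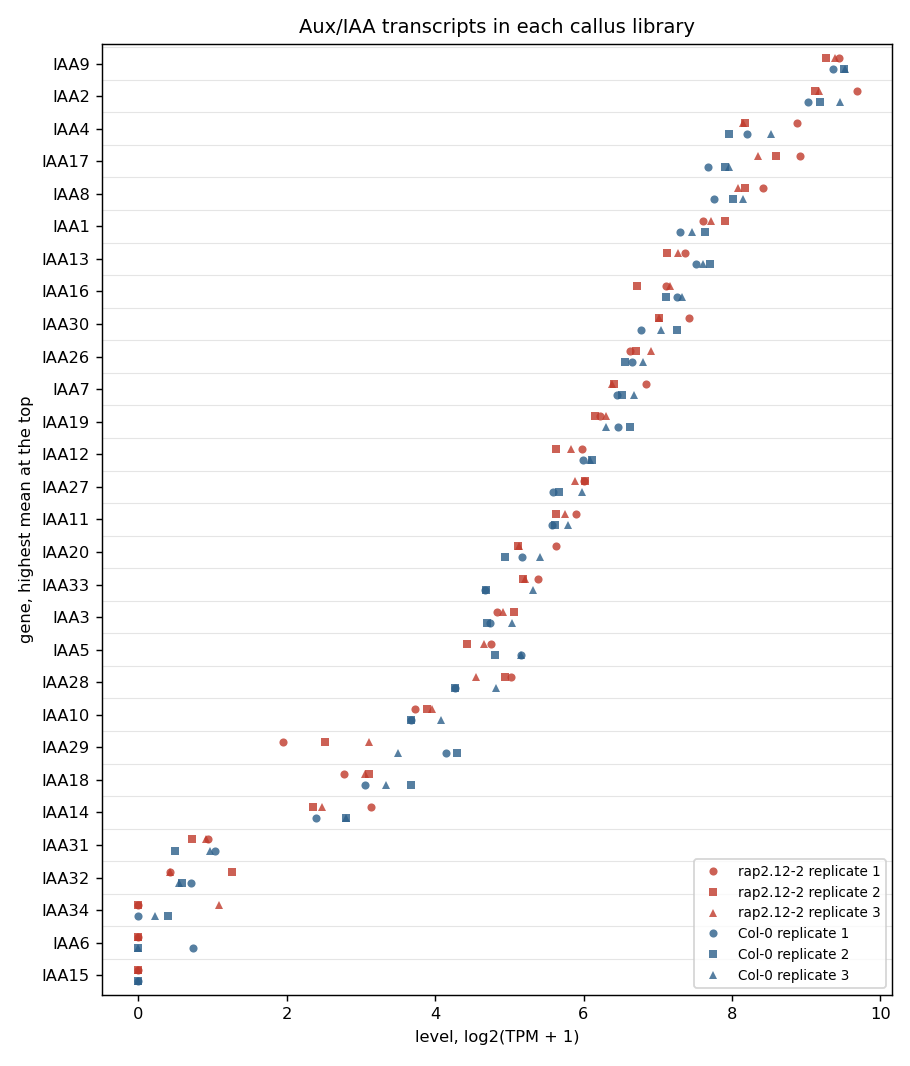
Level of each of the 29 Aux/IAA genes on a log2(TPM + 1) axis, 1 point per library, with the rap2.12-2-labelled libraries above and Col-0 below in each row. IAA9 and IAA2 are at the top, IAA17 lies to the right in the rap2.12-2-labelled libraries, and IAA29 lies to the left in them.

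IAA17 was higher and IAA29 lower in all 3 rap2.12-2-labelled libraries than in any Col-0 library, yet no Aux/IAA gene passed the test over all genes. IAA17, known from axr3 mutants with altered root growth and root hairs, measured 481, 387 and 327 TPM in the rap2.12-2-labelled libraries, against 203, 239 and 248 TPM in Col-0. The lowest of the first group was above the highest of the second, with means of 398 ± 77.6 and 230.1 ± 23.9 TPM (SD, n = 3 each), 1.73 times higher in the rap2.12-2-labelled libraries. On the log2(TPM + 1) scale, which understates changes of low genes, the fold change of IAA17 was 0.78 (SE 0.18, adjusted p = 0.296 in limma). IAA17 (AT1G04250) lies on chromosome 1 from 1136078 to 1138663 on the plus strand of TAIR10.1. Leaving out any single library kept its log2 fold change between 0.63 and 0.91 (limma adjusted p from 0.174 to 0.876).

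IAA29, an auxin-induced gene also known as a target of light and temperature signalling, was a minor member that differed by more. It measured 2.88, 4.74 and 7.59 TPM in the rap2.12-2-labelled libraries, against 16.8, 18.7 and 10.4 TPM in Col-0. The groups did not overlap, with means of 5.07 ± 2.37 and 15.3 ± 4.38 TPM (SD, n = 3 each), 3.02 times lower in the rap2.12-2-labelled libraries. It gave a log2 fold change of -1.46 (SE 0.33, adjusted p = 0.296 in limma), between -1.75 and -1.17 when single libraries were left out. IAA29 (AT4G32280) lies on chromosome 4 from 15583332 to 15584903 on the plus strand, and neither it nor IAA17 overlaps another annotated gene. For both genes the exact permutation p, two-sided, was 0.1, which is the lowest that a design of 3 against 3 can reach.

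IAA13, IAA5 and IAA12 also lay lower without overlap. IAA13 and IAA12 (BODENLOS), the partners of ARF5 in embryo root founding, are close relatives. IAA13 (AT2G33310) measured 164, 139 and 153 TPM in the rap2.12-2-labelled libraries, against 181, 208 and 195 TPM in Col-0 (log2 fold change -0.35, limma adjusted p = 0.64). IAA12 (AT1G04550) measured 62.2, 48.7 and 56.2 TPM in the rap2.12-2-labelled libraries, against 63.0, 68.25 and 66.8 TPM in Col-0 (-0.25, limma adjusted p = 0.842, and -0.16 without rap2.12-2-labelled replicate 2). IAA5 (AT1G15580), an early auxin-induced gene, measured 26.0, 20.5 and 24.2 TPM in the rap2.12-2-labelled libraries, against 34.8, 27.1 and 34.8 TPM in Col-0 (-0.43, limma adjusted p = 0.672). IAA13 overlaps AT2G33300 on the other strand over 1176 bases, and IAA5 overlaps AT1G15570 over 48 bases. Whether counting used strand is not given in the sources used here. AT2G33300 measured 0 TPM in the rap2.12-2-labelled libraries and 0.1 TPM in Col-0 on average. AT1G15570, on the strand opposite to IAA5, measured 34.9 and 37.5 TPM in the same order, above IAA5 itself. The part of these overlaps in the values was not tested.

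Over the family the counts were small. In limma over 18629 kept genes with Benjamini-Hochberg adjustment, 0 of 24 Aux/IAA genes passed 0.05 in either direction, where 0.0698% of all kept genes did (0.0429% higher and 0.0268% lower). Past an unadjusted p of 0.05, 1 Aux/IAA gene was higher (4.17%, against 3.22% of kept genes) and 3 were lower (12.5%, against 3.62%), where 6.84% of kept genes were past it in either direction. Groups did not overlap in 1 higher gene (4.17%, against 6.62% of kept genes) and 4 lower genes (16.7%, against 6.03%), where 12.7% of kept genes did not overlap in either direction. Of the 24 genes 14 had a positive log2 fold change, against 46.7% of kept genes, and 10 had a negative one (41.7%, against 53.3%). These counts turned to 10 positive and 14 negative once the library labelled rap2.12-2 replicate 1 was left out, where 11692 of the 18629 kept genes were positive and 6926 negative. The 3 lower genes, IAA29, IAA13 and IAA5, became 1 without rap2.12-2-labelled replicate 2 or 3, without Col-0 replicate 3, or with median-of-ratios scaling. The count was 6 with organelle genes removed, or with levels centred on transcript length. The share of all kept genes past this p was not counted in these settings, so the changes cannot be read as particular to the family. Removing organelle genes also rescaled every library to the same total, which raised the values of Col-0 replicate 1 the most. These steps were not separated. The 1 higher gene became 2 without the library labelled rap2.12-2 replicate 1 (with 4 lower, where 6.43% of kept genes were past this p in either direction) and 3 without Col-0 replicate 3. Of the other members, IAA28 (27.9 ± 4.80 and 21.2 ± 5.16 TPM), IAA33 (37.4 ± 3.01 and 29.4 ± 8.14 TPM) and IAA1 (215 ± 23.3 and 177 ± 20.7 TPM; all SD, n = 3 each, Col-0 last) had log2 fold changes of 0.39, 0.37 and 0.28 with overlapping groups. All 3 kept members without the degron codons (IAA20, IAA30 and IAA33) and 11 of 21 with them had a positive log2 fold change, against 46.7% of kept genes, with medians of 0.12 and 0.05. With rap2.12-2-labelled replicate 1 left out, IAA20 stood at -0.05, IAA30 at -0.01 and IAA33 at 0.31.

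The ARF genes were all present, and every one of the 15 was lowest in the library labelled rap2.12-2 replicate 1. Long transcripts were low in that library among all kept genes, as given below. The share of all kept genes lowest in it was not counted, here or for the gene lists below. ARF5 (AT1G19850, MONOPTEROS), the activator of embryo and vascular patterning, led the family at 172, 292 and 259.8 TPM in the rap2.12-2-labelled libraries, against 201, 253 and 268 TPM in Col-0, 36.6% and 33.8% of the summed ARF level. ARF2 (AT5G62000), a repressor linked to organ growth and ageing, measured 34.1, 82.2 and 76.4 TPM in the rap2.12-2-labelled libraries, against 70.9, 91.2 and 83.0 TPM in Col-0. ARF10 (AT2G28350), a miR160 target, measured 52.2, 95.7 and 83.4 TPM in the rap2.12-2-labelled libraries, against 55.75, 71.4 and 66.7 TPM in Col-0. In each of these genes 1 library labelled rap2.12-2 was below Col-0 while the other two lay among or above the Col-0 values. ARF19 (AT1G19220) was the extreme case, with 9.73, 38.2 and 37.6 TPM in the rap2.12-2-labelled libraries, against 32.6, 37.0 and 36.7 TPM in Col-0. ARF7 (AT5G20730), its partner in lateral root founding, gave 7.70, 23.3 and 22.15 TPM in the rap2.12-2-labelled libraries, against 19.8, 24.2 and 24.65 TPM in Col-0. In both genes replicate 1 of the label was far below the other 5 libraries. Replicates 2 and 3 of the label lay just above all Col-0 values in ARF19 and among them in ARF7. ARF11 (AT2G46530) was the least abundant, at 0.58, 1.36 and 1.5 TPM in the rap2.12-2-labelled libraries and 1.17, 3.00 and 2.14 TPM in Col-0. The remaining ARF genes lay between: ARF1, ARF6 and ARF8 at means of 45.8 to 53.4 TPM over the 6 libraries, and ARF16, ARF4, ARF9, ARF17 and ARF18 at 11.1 to 20.3 TPM.

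**Figure D2:**
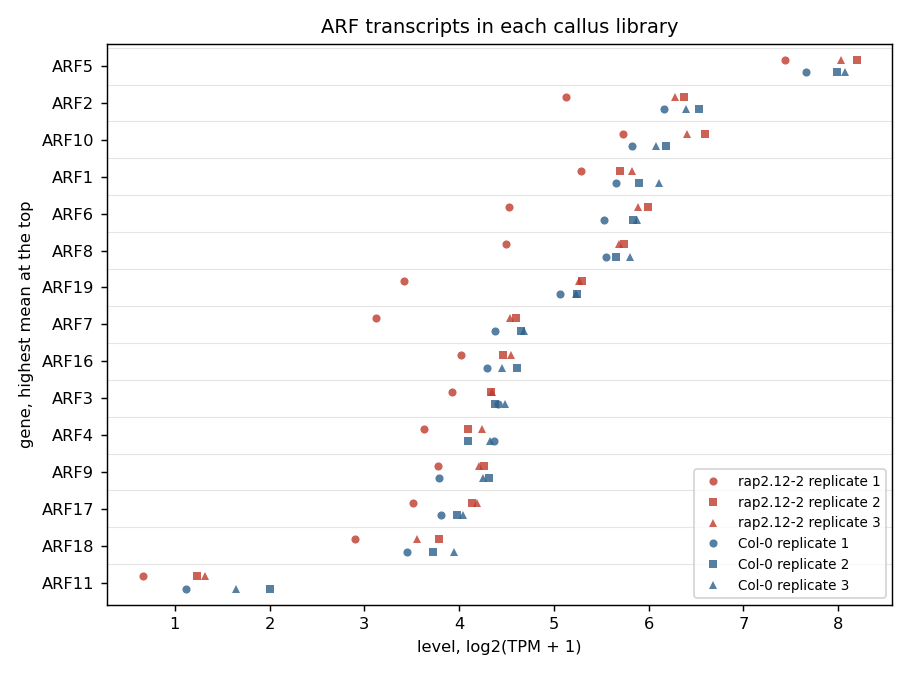
Level of each of the 15 ARF genes on a log2(TPM + 1) axis, 1 point per library, with the rap2.12-2-labelled libraries above and Col-0 below in each row. The circle of the library labelled rap2.12-2 replicate 1 is the leftmost point of every row, and ARF5 is the highest gene.

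No ARF gene passed the test over all genes, and none of the 15 had an unadjusted limma p under 0.05 (0 higher, against 3.22% of kept genes, and 0 lower, against 3.62%). Only ARF3 (AT2G33860, ETTIN), which patterns the gynoecium and the lower side of leaves, had groups that did not overlap, at 14.2, 19.2 and 19.3 TPM in the rap2.12-2-labelled libraries against 20.3, 19.8 and 21.4 TPM in Col-0 (log2 fold change -0.22, limma adjusted p = 0.868), a value that was -0.09 with rap2.12-2-labelled replicate 1 left out. That is 1 of 15 (6.67%), where 6.03% of kept genes were lower without overlap. In all, 13 of 15 ARF genes had a negative log2 fold change (86.7%), against 53.3% of kept genes, with a median of -0.28 against -0.02. With the library labelled rap2.12-2 replicate 1 left out, the count was 7 of 15 and the median 0.04. Kept genes then had a median of 0.06, with 6926 of 18629 negative. In that setting 1 of 15 ARF genes (ARF10) was higher at an unadjusted limma p under 0.05 (6.67%). Of kept genes 6.43% were past it in either direction. The median coefficient of variation of an ARF gene was 29.1% in the rap2.12-2-labelled libraries and 12.4% in Col-0, against 12.3% and 13.7% for the Aux/IAA genes. The 29.1% includes the library labelled rap2.12-2 replicate 1, in which all 15 ARF genes were lowest. The same median over all kept genes was not computed.

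In the library labelled rap2.12-2 replicate 1 long transcripts were low among all kept genes. The kept Aux/IAA genes have annotated transcripts of 759 to 2025 bases (median 1357), the ARF genes of 2367 to 4429 bases (median 2998), and kept genes a median of 1723 bases. In the library labelled rap2.12-2 replicate 1 the median difference from the Col-0 mean, on the log2(TPM + 1) scale, was 0.28 for the shortest transcripts (2803 genes of up to 1000 bases), -0.12 for 4570 genes of 1501 to 2000 bases and -0.76 for 2157 genes over 3000 bases. In the other 2 libraries of that label it stayed between 0.02 and 0.09 in every length class. The ARF differences in replicate 1 ran from -0.30 for ARF10 to -1.76 for ARF19, and 9 of 15 lay below the median of their own length class. The trend on length was also removed from each library, an alternative chosen after seeing the data. The ARF median was then -0.13 and 11 of 15 were negative, where kept genes had a median of -0.0005 and 9318 of 18602 were negative. IAA17 stood at 0.72 and IAA29 at -1.53.

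**Figure D3:**
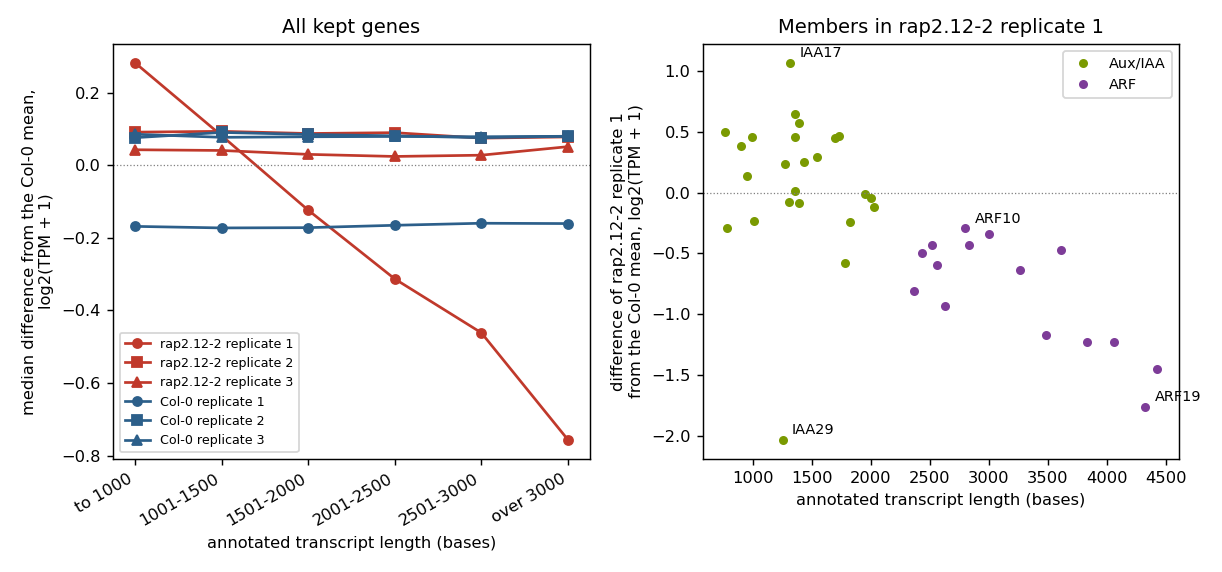
Left, median difference from the Col-0 mean on the log2(TPM + 1) scale for all kept genes in 6 classes of transcript length, 1 line per library. Right, the same difference for each kept Aux/IAA and ARF gene in the library labelled rap2.12-2 replicate 1 against its transcript length. The medians of that library run down from 0.28 in the shortest class to -0.76 in the longest while the other 5 stay level, and in it all 15 ARF genes lie below 0 and 14 of 24 Aux/IAA genes above 0.

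Set side by side, the families differed most in that library. The summed Aux/IAA level was 4148, 3348 and 3389 TPM in the rap2.12-2-labelled libraries, against 3100.2, 3367 and 3685 TPM in Col-0. The summed ARF level was 429, 802 and 750.3 TPM in the rap2.12-2-labelled libraries, against 616.5, 749 and 771 TPM in Col-0. Per library the Aux/IAA sum was thus 9.68, 4.17 and 4.52 times the ARF sum in the rap2.12-2-labelled libraries, against 5.03, 4.49 and 4.78 times in Col-0. Replicate 1 of the label stood alone at 9.68, and the other two overlapped Col-0 or lay just under it. The ARF median log2 fold change was lower than the Aux/IAA median by a difference of -0.37 (-0.28 for ARF genes and 0.09 for Aux/IAA genes). The same difference was 0.10 when the library labelled rap2.12-2 replicate 1 was left out and 0.06 without both replicates numbered 1. The 24 Aux/IAA genes ran from -1.46 (IAA29) to 0.78 (IAA17), with the other members between -0.43 (IAA5) and 0.39 (IAA28), and the 15 ARF genes from -0.52 (ARF19) to 0.21 (ARF10).

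**Figure D4:**
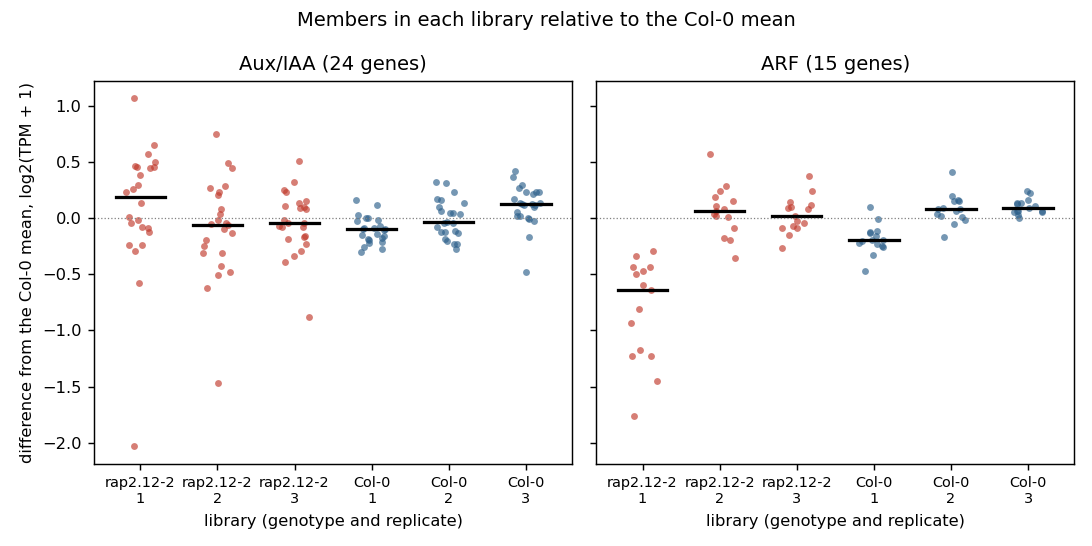
Difference of each kept member from its Col-0 mean on the log2(TPM + 1) scale, by library, for 24 Aux/IAA genes (left) and 15 ARF genes (right), with a bar at the median. ARF genes lie at a median of -0.64 in the library labelled rap2.12-2 replicate 1 and close to 0 in replicates 2 and 3 of that label, at 0.06 and 0.02.

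ARF classes were compared with and without that library. Of kept genes 53.3% were negative with all 6 libraries, and 6926 of 18629 without that library. The 5 class A activators (ARF5, ARF6, ARF7, ARF8 and ARF19) summed to 233, 469 and 428 TPM in the rap2.12-2-labelled libraries, against 345, 419.98 and 442 TPM in Col-0. All 5 had a negative log2 fold change (median -0.36), and 4 of 5 were positive without the library labelled rap2.12-2 replicate 1 (median 0.10). The 7 class B genes had a median of -0.29, and of -0.09 without that library, with 6 of 7 negative. The 3 class C genes, the targets of miR160, had a median of 0.00, and 0.22 without that library, with 0 of 3 negative. ARF10, the most abundant of these, then had a log2 fold change of 0.47 (limma adjusted p = 0.581), while ARF17 and ARF16 had 0.22 and 0.05. The miR167 targets ARF6 and ARF8 had 0.19 and 0.04 without that library, against -0.28 and -0.36 with all 6 libraries.

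**Figure D5:**
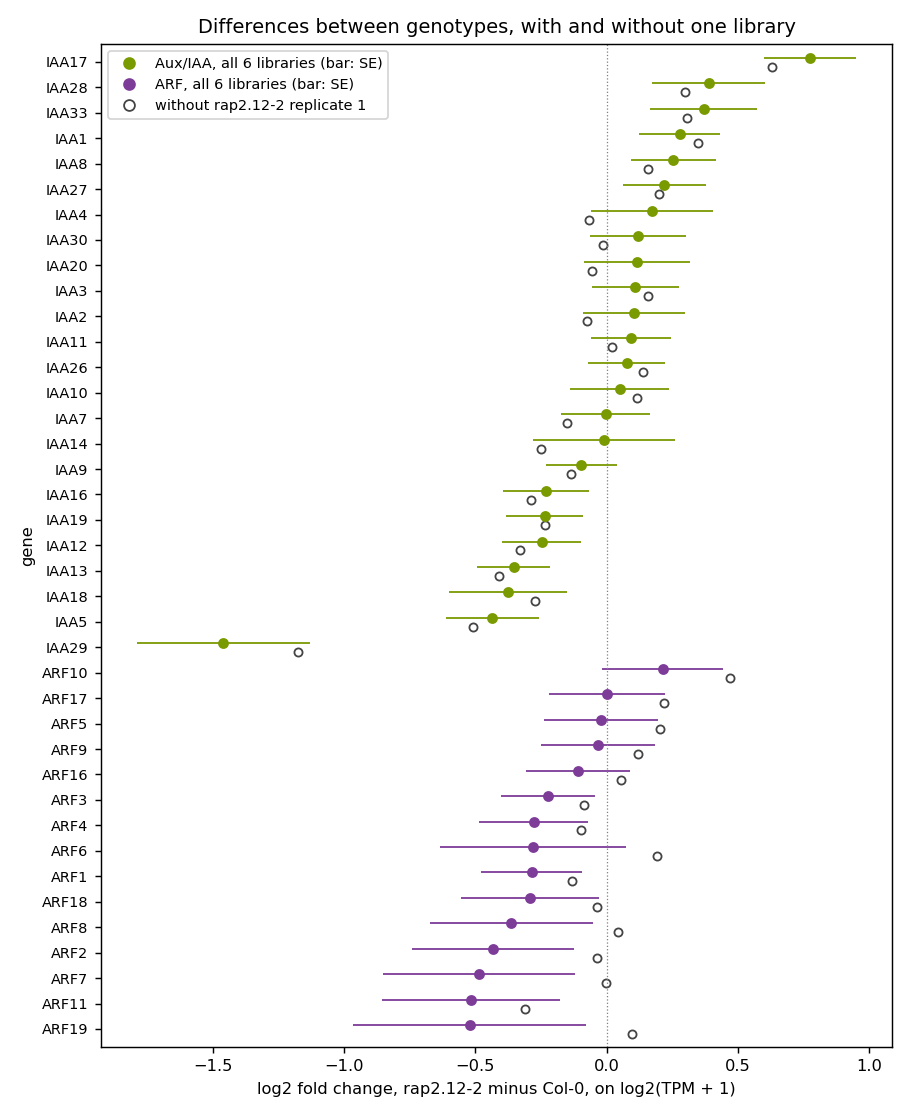
Log2 fold change of each of the 39 kept members, rap2.12-2-labelled libraries minus Col-0, on log2(TPM + 1), with its standard error from limma (filled points) and the value without the library labelled rap2.12-2 replicate 1 (open points). ARF points lie mostly left of 0 with all libraries and around 0 without that library, whereas IAA17 stays at 0.63 and IAA29 at -1.17.

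The rest of the auxin pathway was read from lists of receptors, co-repressors, ligase parts, small RNA genes and auxin-induced genes, and no member of these lists passed in limma over all genes. All 6 receptor genes had a small positive log2 fold change, against 46.7% of kept genes, from 0.04 for TIR1 (83.3 ± 18.5 and 80.3 ± 11.2 TPM) to 0.18 for AFB2 (38.5 ± 3.00 and 34.0 ± 5.17 TPM; SD, n = 3 each, Col-0 last). Their median was 0.13, and 0.21 with rap2.12-2-labelled replicate 1 left out, when TIR1 stood at 0.23. The 5 TOPLESS co-repressor genes, with transcripts of 3824 to 4165 bases, were also long and low in 1 library: all were lowest in the library labelled rap2.12-2 replicate 1, and their median log2 fold change was -0.46, and 0.07 without that library. TPL itself measured 56.5, 129.8 and 125 TPM in the rap2.12-2-labelled libraries, against 102, 135 and 128 TPM in Col-0. The 9 genes of the SCF ligase and its regulators ran from -0.32 (CAND1) to 0.24 (ASK2), with a median of 0.09, and without that library CAND1, whose transcript has 4204 bases, stood at 0.08 and ASK2 at 0.14, with a median of 0.08. Of 6 small RNA pathway genes that act on ARF transcripts, 6 were negative, against 53.3% of kept genes. Their median was -0.27, and -0.00 without that library. TAS3A, the precursor of small RNAs against ARF2, ARF3 and ARF4, measured 94.4 ± 14.4 and 106 ± 16.1 TPM (SD, n = 3 each, Col-0 last).

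Auxin-induced output genes had mostly negative log2 fold changes, in 7 of 9 kept genes, against 53.3% of kept genes, with a median of -0.38. GH3.3, which conjugates auxin to amino acids, measured 116, 198 and 302 TPM in the rap2.12-2-labelled libraries, against 403, 640.0 and 355 TPM in Col-0 (log2 fold change -1.23, limma adjusted p = 0.407). LBD33, a lateral root factor, measured 1.00, 1.81 and 0.49 TPM in the rap2.12-2-labelled libraries, against 2.63, 7.45 and 2.89 TPM in Col-0 (-1.28, limma adjusted p = 0.477). Both genes had groups that did not overlap, and so did GH3.6 (-0.46), which makes 3 of 9 genes lower without overlap, against 6.03% of kept genes. With the library labelled rap2.12-2 replicate 1 left out, the median of the list was -0.02, with 5 of 9 negative, and GH3.3 stood at -0.88, LBD33 at -1.27 and GH3.6 at -0.20. In the library labelled rap2.12-2 replicate 1, 8 of the 9 genes were at their lowest, and the same share of all kept genes was not counted. The part of that library and of the WOX11 level in this list was not tested.

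Auxin response elements, the DNA motifs that ARFs bind, were searched on both strands in the 300 bases before each annotated gene start. TGTCTC was found for 11 of 29 Aux/IAA genes (37.9%) and 2 of 15 ARF genes (13.3%), against 13% of 27443 protein-coding genes. TGTCGG was found for 6 Aux/IAA genes (20.7%) and 2 ARF genes (13.3%), against 4.91%. IAA17 and IAA29 had no match to either motif in this window, and IAA13 and IAA12 had 1 match each to TGTCGG. IAA5 had 1 match to TGTCTC and 2 to TGTCGG, the most matches among the 5 Aux/IAA members whose groups did not overlap, and its window is shown in gene orientation with the matches in capitals. The letters AAACCA followed by any 3 bases and GC, a loose form of the hypoxia-responsive element described for RAP2.12, were found for IAA12 alone among the 44, against 0.962% of genes. A match describes letters and not a bound site.
IAA5 upstream (chr1:5366498-5366797, minus strand): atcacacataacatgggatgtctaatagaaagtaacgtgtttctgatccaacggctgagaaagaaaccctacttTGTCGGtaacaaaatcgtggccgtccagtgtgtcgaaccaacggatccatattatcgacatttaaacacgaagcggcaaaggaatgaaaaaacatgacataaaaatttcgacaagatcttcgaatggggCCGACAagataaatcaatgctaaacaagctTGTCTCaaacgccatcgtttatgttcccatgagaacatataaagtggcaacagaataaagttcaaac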

How the data were processed

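Total RNA of callus was made into TruSeq libraries, per the labels' protocols. The authors deposited 1 table of TPM for 31305 loci. STAR 2.7.10a and RSEM 1.3.1 appear in the submitters' processing notes beside TAIR10, with no role given. TPM keeps no sequencing depth, so precision is judged from the spread of 3 libraries per group. The members and gene lists were chosen with earlier results of these data known.

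A gene was kept where its mean over the 6 libraries reached 1 TPM (18629 genes, with 39 of 44 members). Values were taken as log2(TPM + 1), and limma 3.58.1 in R 4.3.3, with its variance trend, gave p-values that were adjusted by Benjamini-Hochberg across the kept genes (threshold 0.05). The step was tested on simulated data. Single members were checked with an exact permutation test.

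Values in every library are given for members with an unadjusted p under 0.05 or groups that do not overlap, and for the 3 most abundant of each family. ARF7, ARF11, ARF19, IAA1, IAA3, IAA18, IAA28 and IAA33 were added after their values were seen. Of each list up to 4 genes with the smallest p could be named, and TIR1, PLT1, LBD16 and LHCB1.1 were also chosen after their values were seen.

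Sequences, positions and transcript lengths (longest transcript) come from RefSeq TAIR10.1. BLAST 2.17.0 found a stretch of at least 100 bases at 95% identity elsewhere for IAA20 and IAA30, each in the other, so reads there may be split. Alternatives were other pseudocounts, filters and scalings, no variance trend, a replicate block, libraries left out and centring on transcript length. Where organelle genes were removed, each library was rescaled to the same total.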

Additional observations from a re-analysis of the deposited data

How the results depend on the processing

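Under all 16 alternatives 0 Aux/IAA and 0 ARF genes passed in limma, with adjusted p between 0.116 and 0.876 for IAA29 and between 0.132 and 0.876 for IAA17. Over all genes 8 were higher and 5 lower, against 3 and 3 with no filter, 3 higher with median-of-ratios scaling, 2 and 3 with no variance trend, 0 and 0 in limma without both replicates numbered 1 (512 and 703 with an unadjusted p below 0.05) and 26 and 12 centred on length. Leaving out single libraries gave 2 to 19 higher and 2 to 6 lower. Counts of Aux/IAA genes at an unadjusted p under 0.05 were 2 higher and 1 lower after median-of-ratios scaling. They were 6 lower with organelle genes removed and libraries rescaled to the same total, and 6 lower with length centring. With single libraries left out they were 1 to 3 higher and 1 to 4 lower. For ARF genes 1 was higher without both replicates numbered 1 and 1 with length centring, and 0 to 1 with single libraries left out. Kept genes past this p were counted only with all 6 libraries, without rap2.12-2-labelled replicate 1 and without both replicates numbered 1. The Aux/IAA median was -0.11 and the ARF median minus the Aux/IAA median 0.065 without both replicates numbered 1. With single libraries left out the Aux/IAA median ran from -0.060 to 0.15, the ARF median from -0.39 to 0.042 and their difference from -0.48 to 0.10. The only library that turned the ARF median or that difference positive was the one labelled rap2.12-2 replicate 1. RAP2.12 no longer passed with no filter (1.48, limma adjusted p = 0.0618), no variance trend (1.48, 0.0766) or without both replicates numbered 1 (1.45, 0.308), and single libraries left out gave 1.36 to 1.58 (limma adjusted p from 0.0468 to 0.22).

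Values near 0 changed sign. IAA2 was -0.17 and IAA4 -0.078 without both replicates numbered 1, and ARF5 0.080 there and 0.17 centred on length. With single libraries left out IAA2 ran from -0.073 to 0.22, IAA4 from -0.065 to 0.32 and ARF5 from -0.18 to 0.20. In the other settings these members kept their direction. Members outside this set could turn too. Without rap2.12-2-labelled replicate 1, ARF19 went from -0.52 to 0.10, ARF6 from -0.28 to 0.19 and ARF8 from -0.36 to 0.04. Whether the replicate numbers pair the samples was not settled. Correlations of deviations were 0.20, 0.35 and -0.11 for same-numbered libraries and ran from -0.34 to 0.23 for the others. Deviations are taken from the mean of each group, so these values constrain each other. With a replicate block 2 genes were higher and 2 lower, and RAP2.12 stood at 1.48 (limma adjusted p = 0.062).

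TPM without depth limits the low members: IAA6, IAA15, IAA31, IAA32 and IAA34 were not compared.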

Other observations

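Members lie next to each other in the genome in 3 places, each a divergent pair with 1 annotated gene between. IAA3 lies 6388 bases from IAA17 on chromosome 1, and measured 27.6, 32.4 and 29.2 TPM in the rap2.12-2-labelled libraries, against 25.8, 25.0 and 31.9 TPM in Col-0. IAA3 overlapped between the genotypes (log2 fold change 0.11, limma adjusted p = 0.908), while IAA17 did not. In the pair IAA2 and IAA7 on chromosome 3 the log2 fold changes were 0.10 and -0.00, and in the pair IAA14 and IAA1 on chromosome 4 they were -0.01 and 0.28.

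IAA18 and IAA6 lie 829.8 and 462 kb from RAP2.12 on chromosome 1. IAA18 measured 5.84, 7.60 and 7.33 TPM in the rap2.12-2-labelled libraries, against 7.31, 11.8 and 9.07 TPM in Col-0 (log2 fold change -0.38, limma adjusted p = 0.84), and the groups overlapped.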
